A study of Mus musculus with 10 samples.

Results

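The 9 genes described here encode the checkpoint kinases Atm, Atr and Chek1, the Fanconi anaemia proteins Fanca, Fanci and Fancd2, and the homologous recombination proteins Brca1, Palb2 and Brca2. They were taken by name from the 38803 gene symbols measured in each library. The choice was made with earlier results of these data known. RNA sequencing had been performed on dorsal telencephalon, the embryonic tissue that forms the cerebral cortex, of mouse embryos at embryonic day 12. The 5 control libraries carried the genotype Rnu11WT/Flx::Emx1-cre+/- and the 5 mutant libraries Rnu11Flx/Flx::Emx1-Cre+/-, both on a mixed C57/Bl6 and 129 SvJ background. Rnu11 encodes U11, a small nuclear RNA with which the minor spliceosome finds the 5′ splice site of minor introns, and Emx1-Cre recombines floxed DNA in progenitors of the dorsal telencephalon and their progeny. Cre was present in both groups, so the single floxed copy of the controls could recombine as well, and no library without Cre or without a floxed copy was part of the comparison. Cells outside the Emx1 lineage keep Rnu11 in either genotype. The labels do not tie libraries to separate embryos, so p-values measure the spread between these libraries, which may in part be technical.

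DNA breaks and stalled replication forks are sensed by the related kinases ATM, which responds to double-strand breaks, and ATR, which is recruited with its partner ATRIP to single-stranded DNA. ATR activates the kinase CHK1, the product of Chek1, which slows the cell cycle. Crosslinks between DNA strands are handled by the Fanconi pathway, in which a core complex that contains FANCA directs the ubiquitination of the paired proteins FANCD2 and FANCI. Breaks are then repaired by homologous recombination, where BRCA1 acts with BARD1, and PALB2 joins BRCA1 to BRCA2. Cortical progenitors at this stage divide rapidly, and many genes of these pathways are transcribed most in S and G2 phase.

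Promoter sequence is shown for 2 of the genes because their library patterns differed, as described below: Brca2 was highest in control 5, like Brca1, Palb2, Atm and Atr, whereas Fanca was highest in control 4. RefSeq promoter windows of GRCm38.p6, from 250 bases before to 50 bases after the start of each gene, were matched for 8 of the 9 genes. The 7-base core of the E2F element, GCGGGAA or TTCCCGC on the other strand, was found in 4 of these 8 windows, those of Atm, Brca2, Chek1 and Fanci, and in 4.6% of all 32851 windows. The CCAAT box, CCAAT or ATTGG, was found in 4 windows, those of Atm, Brca1, Fanca and Palb2, and in 37.4% of all windows. The cell cycle homology region, TTTGAA or TTCAAA, was in none of the 8 and in 17.9% of all windows. The 250 bases before the starts of Brca2 (chr5:150522371-150522620, plus strand) and Fanca (chr8:123318577-123318826, minus strand) are given 5′ to 3′, with the E2F core of Brca2 and both CCAAT boxes of Fanca in capitals.
Brca2: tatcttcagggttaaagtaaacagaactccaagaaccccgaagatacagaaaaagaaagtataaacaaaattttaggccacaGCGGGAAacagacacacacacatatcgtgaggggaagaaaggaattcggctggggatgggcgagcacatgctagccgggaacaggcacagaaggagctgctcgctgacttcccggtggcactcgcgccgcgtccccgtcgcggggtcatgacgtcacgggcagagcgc
Fanca: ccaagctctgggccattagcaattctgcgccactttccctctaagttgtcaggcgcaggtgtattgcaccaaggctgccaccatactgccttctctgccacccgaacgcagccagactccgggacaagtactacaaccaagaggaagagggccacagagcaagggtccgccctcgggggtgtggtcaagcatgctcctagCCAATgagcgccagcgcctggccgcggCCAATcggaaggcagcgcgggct
The E2F core of Brca2 begins at position -168 from the start of the gene and the CCAAT boxes of Fanca at positions -50 and -23 from theirs. These matches describe the letters in the windows, and binding at them was not measured. Of the other genes highest in control 5, Brca1 and Palb2 had the CCAAT box and no E2F core, Atm had both and Atr had neither. A link between these motifs and the library patterns was not tested.

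Values are FPKM (fragments per kilobase of transcript, after scaling for the size of the library), so levels can be compared between genes per unit of length. The floxed gene checked the labels. Rnu11 (in GRCm38, the build of all coordinates here, chromosome 4, 132270080 to 132270213, minus strand) stood at 2386, 2031, 2818, 1913 and 2266 FPKM in controls 1 to 5 and at 712.1, 472.8, 511.2, 1344 and 1422 FPKM in mutants 1 to 5. The groups did not overlap, and the mutant mean of 892.3 ± 457.6 FPKM was 39.1% of the control mean of 2283 ± 352.5 FPKM (SD, n = 5 each; exact two-sided permutation p = 0.00794, the smallest that 5 against 5 libraries allow). In the fit across all genes its log2 difference of -1.50 did not pass (limma adjusted p = 0.118). Mutants 4 and 5 and control 5 stand apart from the other 7 libraries: the U12 RNA gene Rnu12 was listed at 487 to 688 FPKM in these 3 and at 5.91 to 33.8 FPKM in the rest. This split into a second and a first library set was found in the values and is not given by the labels. It crosses genotype, with 4 controls and 3 mutants in the first set. The loss of Rnu11 differed between the sets. Its mean was 2287 FPKM in controls and 565.4 FPKM in mutants of the first set, a log2 difference of -2.02. In the second set, with a single control, it was 2266 and 1383 FPKM, a log2 difference of -0.71. Library set was added to the fit as an alternative. Protein-coding genes held 9.80 to 18.6% of the FPKM sum of a library, with the highest share in control 5, so a scaling to the whole sum can move all coding genes of a library together. Markers of dorsal telencephalon were present throughout, with Emx1 among them, and their summed level was 219 to 311 FPKM in controls and 250 to 294 FPKM in mutants. Of 12 tested, 10 had a log2 difference above 0, with 0 called and 3 at an unadjusted limma p under 0.05, against 8.76% of all tested genes. Their median log2 difference of 0.16 was 0.056 above that of all tested genes. Of the 12, 7 lay above the median of all tested genes, and 6 lay above 0 after each library was scaled by median ratios. In the first set their mean log2(FPKM + 1) was 4.07 to 4.16 in controls and 4.29 to 4.45 in mutants, without overlap. Taken singly, 16.7% of all tested genes were higher in every mutant than in any control of that set. In the second set it was 4.48 in the control and 4.37 to 4.44 in the mutants.

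None of the 9 genes was called different between genotypes in the fit across all genes, which did not call the floxed gene Rnu11 either. All 9 passed the filter of at least 1 FPKM in at least 5 libraries, and 0 were called (limma, Benjamini-Hochberg adjusted p of 0.597 to 0.959), where 21 of 13522 genes were called, 0.155%. At an unadjusted p under 0.05 there were also 0, against 8.76% of all genes. For none of them were the 5 mutant libraries separated from the 5 controls, which held for 1.52% of all genes on the higher side and for 0.377% on the lower side. The median log2 difference of the 9, mutant minus control, was 0.086, and that of all tested genes 0.11. Above 0 stood 7 of the 9, but 3 once the libraries were scaled by median ratios, which brings the median of all genes from 0.11 to 0.0016, and 3 with the library set as a term in the fit. With that term 0 of the 9 were called (0.547% of all genes), and within the first set alone 0 (0.747%). Separation of the genotypes within the first set was found for 0 of the 9, against 16.7% of all genes on the higher side and 1.44% on the lower side. The sign of 4 of the 9, Brca1, Brca2, Atm and Chek1, thus turned with median-ratio scaling, while Fanci, Fancd2 and Atr stayed above 0 and Fanca and Palb2 below 0 on that scale.

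**Figure D1:**
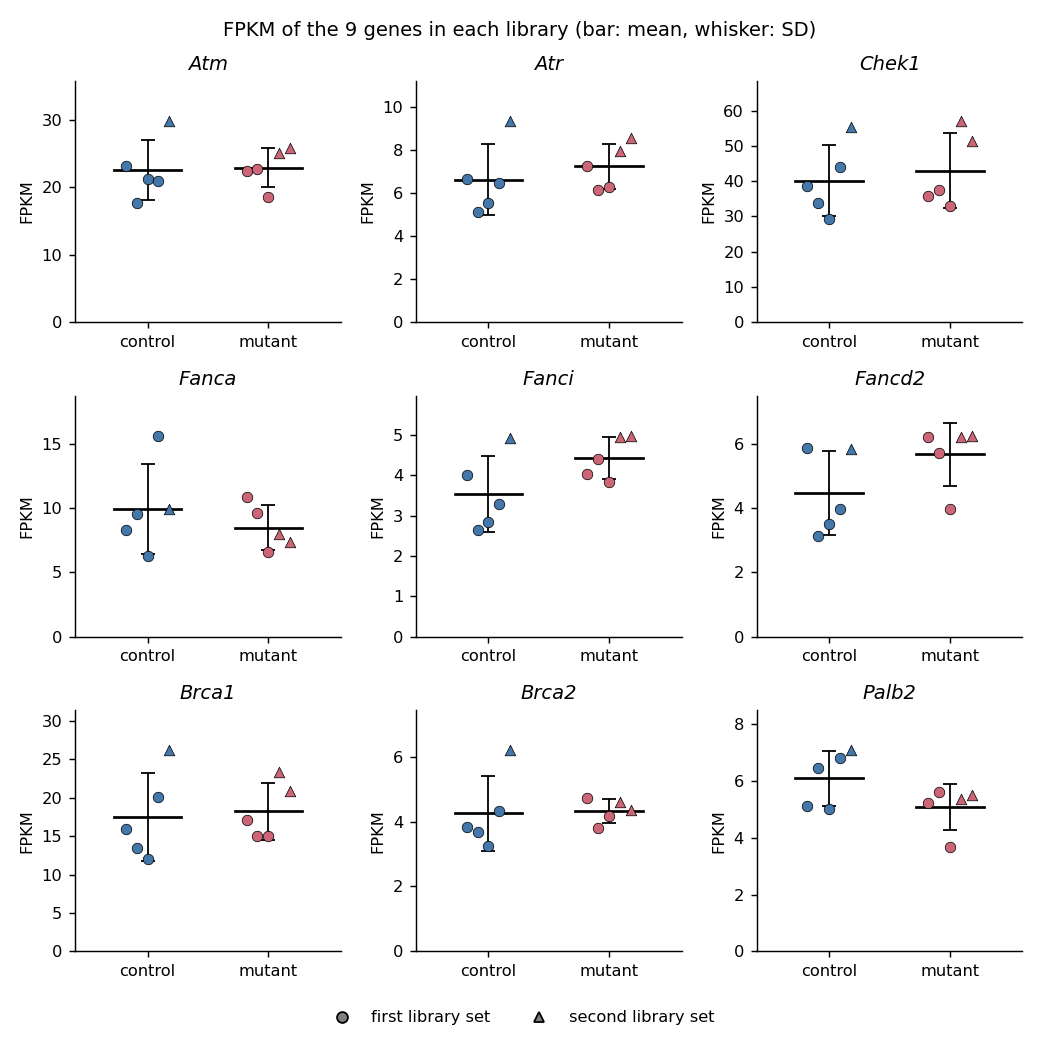
FPKM of the 9 genes (vertical axes, each from 0) in control and mutant libraries, with circles for the first and triangles for the second library set, bars at the mean and whiskers of 1 SD, n = 5 per group. In every panel the control and mutant points overlap, and the highest point is a triangle in all panels but that of Fanca.

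Of the kinase genes, Chek1 and Atm were the most highly expressed of the 9, and none of the 3 differed by genotype beyond the spread. Chek1 (chromosome 9, 36708482 to 36727065, minus strand, 14 exons) was listed at 38.6, 33.7, 29.2, 43.9 and 55.3 FPKM in controls 1 to 5 and at 35.7, 37.4, 33.0, 57.0 and 51.4 FPKM in mutants 1 to 5. The group means of 40.1 ± 10.1 and 42.9 ± 10.6 FPKM lay well within the spread (SD, n = 5 each; exact permutation p = 0.690), and control 5 and mutants 4 and 5, the second library set, were the 3 highest libraries. Its log2 difference was 0.095 (SE 0.19, limma adjusted p = 0.901), and the 95% interval ran from 0.80-fold to 1.42-fold of FPKM + 1. Adding the library set to the fit gave a log2 difference of -0.026 with an interval of -0.26 to 0.21.

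Atm (chromosome 9, 53439149 to 53536740, minus strand, 63 exons) was listed at 23.2, 17.6, 21.2, 20.9 and 29.8 FPKM in the controls and at 22.3, 22.7, 18.5, 25.1 and 25.8 FPKM in the mutants. The means, 22.5 ± 4.51 and 22.9 ± 2.87 FPKM, were nearly the same (SD, n = 5 each; exact permutation p = 0.881; log2 difference 0.032, SE 0.14, limma adjusted p = 0.959). Atr (chromosome 9, 95857597 to 95951781, plus strand, 44 exons) was lower, at 6.63, 5.09, 5.53, 6.45 and 9.33 FPKM in the controls and 7.23, 6.15, 6.29, 7.96 and 8.55 FPKM in the mutants. Its groups overlapped, at 6.61 ± 1.65 and 7.24 ± 1.04 FPKM (SD, n = 5 each; exact permutation p = 0.492), with a log2 difference of 0.13 (SE 0.15, limma adjusted p = 0.819) that was 0.049 with the library set as a term. For both kinases control 5 was the highest library. Exons of Atr share 726 and 462 bases with the antisense genes 1700065D16Rik and Gm16794, which were listed at means of 0.481 and 0.956 FPKM.

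Ratios within a library do not depend on its scaling. The ratio of Atm to Atr was 3.19 to 3.84 in controls and 2.94 to 3.70 in mutants. For Atrip, which encodes the partner through which ATR reaches single-stranded DNA, the ratio to Atr was 1.27 to 2.29 in controls and 1.16 to 2.03 in mutants. Chek2, which encodes the effector kinase of ATM, was expressed at 0.0877 to 0.124 of the level of Chek1 in controls and at 0.0812 to 0.143 in mutants. In all 3 ratios the genotypes overlapped.

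Among the Fanconi genes, the pair Fanci and Fancd2 had the largest positive differences of the 9, neither past the test. Fanci (chromosome 7, 79391929 to 79450264, plus strand, 38 exons) was listed at 4.00, 2.64, 2.83, 3.28 and 4.93 FPKM in controls 1 to 5 and at 4.02, 4.41, 3.83, 4.95 and 4.98 FPKM in mutants 1 to 5. Control 5 lay with the highest mutants and control 1 between mutants 3 and 1, while the other 3 controls lay below all mutants. The means were 3.54 ± 0.938 and 4.44 ± 0.522 FPKM (SD, n = 5 each; exact permutation p = 0.0873), the mutant mean standing at 125.4% of the control mean, and the log2 difference was 0.28 (SE 0.15, 95% interval -0.037 to 0.59, limma adjusted p = 0.597). The permutation test turned on control 5: without it the difference in means was 1.25 FPKM with p = 0.0317, while limma gave an adjusted p of at least 0.144 whichever single library was left out. That permutation p was 1 of 2 under 0.05 among 108 permutation alternatives tried over the 9 genes. In the first library set the log2 difference was 0.29 (adjusted p = 0.301), and in the second set, with a single control, 0.0065.

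Fancd2 (chromosome 6, 113531682 to 113597017, plus strand, 43 exons), whose product is ubiquitinated together with FANCI, was listed at 5.88, 3.13, 3.51, 3.98 and 5.83 FPKM in the controls and at 6.22, 5.73, 3.97, 6.20 and 6.25 FPKM in the mutants. Controls 1 and 5 reached the level of the mutants, and mutant 3 lay at the level of the lower controls. The means of 4.46 ± 1.30 and 5.67 ± 0.973 FPKM gave a log2 difference of 0.31 (SD, n = 5 each; SE 0.17, 95% interval -0.068 to 0.68, limma adjusted p = 0.624; exact permutation p = 0.0952). With the library set in the fit the difference was 0.25. The ratio of Fanci to Fancd2 was 0.679 to 0.847 in controls and 0.646 to 0.964 in mutants, with the genotypes overlapping. Exons of Fanci share 921 bases with Polg, a mitochondrial DNA polymerase gene on the opposite strand listed at a mean of 22.2 FPKM, and those of Fancd2 share 257 bases with Fancd2os, listed at 0.145 FPKM. No source used here says whether counting was by strand, so reads of Polg may enter the value of Fanci.

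Fanca (chromosome 8, 123268300 to 123318576, minus strand, 44 exons), a subunit of the core complex, was listed at 8.28, 9.52, 6.30, 15.6 and 9.91 FPKM in the controls and at 10.9, 9.62, 6.62, 7.98 and 7.35 FPKM in the mutants. Control 4 was the highest and control 3 the lowest library, so that the mutants lay within the range of the controls. The means were 9.93 ± 3.48 and 8.49 ± 1.73 FPKM (SD, n = 5 each; exact permutation p = 0.516), with a log2 difference of -0.17 (SE 0.20, limma adjusted p = 0.823; -0.15 with the library set in the fit). This difference rested on control 4, without which it was -0.0041, while the difference in means was -0.016 FPKM. It was -0.30 without control 3, -0.095 without mutant 3 and -0.28 after median-ratio scaling. Fanca was the single gene of the 9 whose highest library was not in the second set. Control 4 also had the highest summed level of ventral telencephalon markers, 91.0 FPKM, where the lowest control had 7.12 FPKM and the mutants had 9.69 to 35.3 FPKM, and its part in the level of Fanca was not tested. Exons of Fanca share 920 bases with Zfp276 on the opposite strand, listed at 4.85 FPKM.

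Of the homologous recombination genes, Brca1 (chromosome 11, 101488764 to 101551955, minus strand, 24 exons) was listed at 15.9, 13.5, 12.0, 20.1 and 26.2 FPKM in controls 1 to 5 and at 17.1, 15.0, 15.0, 23.4 and 20.8 FPKM in mutants 1 to 5. The 3 libraries of the second set were again the highest, and the genotypes overlapped. With means of 17.5 ± 5.72 and 18.3 ± 3.72 FPKM (SD, n = 5 each; exact permutation p = 0.833), the log2 difference was 0.086 (SE 0.20, 95% interval -0.35 to 0.52, limma adjusted p = 0.916). Brca2 (chromosome 5, 150522630 to 150570329, plus strand, 28 exons) was listed at 3.83, 3.69, 3.24, 4.31 and 6.20 FPKM in the controls and at 4.73, 3.80, 4.19, 4.59 and 4.35 FPKM in the mutants. Apart from control 5 all libraries of Brca2 lay between 3.24 and 4.73 FPKM, and the means of 4.26 ± 1.15 and 4.33 ± 0.364 FPKM gave a log2 difference of 0.043 (SD, n = 5 each; SE 0.14, limma adjusted p = 0.947; exact permutation p = 0.944).

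Palb2 (chromosome 7, 122107262 to 122132985, minus strand, 14 exons), which encodes the link between BRCA1 and BRCA2, had the most negative difference of the 9. It was listed at 5.11, 6.45, 5.02, 6.83 and 7.08 FPKM in the controls and at 5.22, 5.63, 3.66, 5.37 and 5.50 FPKM in the mutants. Controls 2, 4 and 5 lay above all mutants, while controls 1 and 3 lay among them. The mutant mean of 5.08 ± 0.807 FPKM was 83.3% of the control mean of 6.10 ± 0.971 FPKM (SD, n = 5 each; exact permutation p = 0.119), and the log2 difference was -0.22 (SE 0.14, 95% interval -0.52 to 0.071, limma adjusted p = 0.649; -0.26 with the library set in the fit). Without mutant 3, the lowest library, the log2 difference was -0.13. After median-ratio scaling the groups no longer overlapped: controls ran from 5.62 to 7.13 and mutants from 3.50 to 5.40 scaled FPKM, the difference in means was -1.45 (exact permutation p = 0.00794) and the log2 difference -0.33 (unadjusted p = 0.0145, limma adjusted p = 0.464). On that scale 1.17% of all tested genes lay lower in every mutant than in any control, and Palb2 was the only one of the 9 among them. Its permutation p on that scale was the other of the 2 under 0.05 among the 108 permutation alternatives. The ratio of Palb2 to Brca2, free of scaling, averaged 1.47 ± 0.235 over the controls and 1.18 ± 0.223 over the mutants (SD, n = 5 each; exact permutation p = 0.0794, 1 of 6 such ratios computed). Exons of Palb2 share 414 bases with the processed pseudogene Gm16326, listed at 1.43 FPKM.

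**Figure D2:**
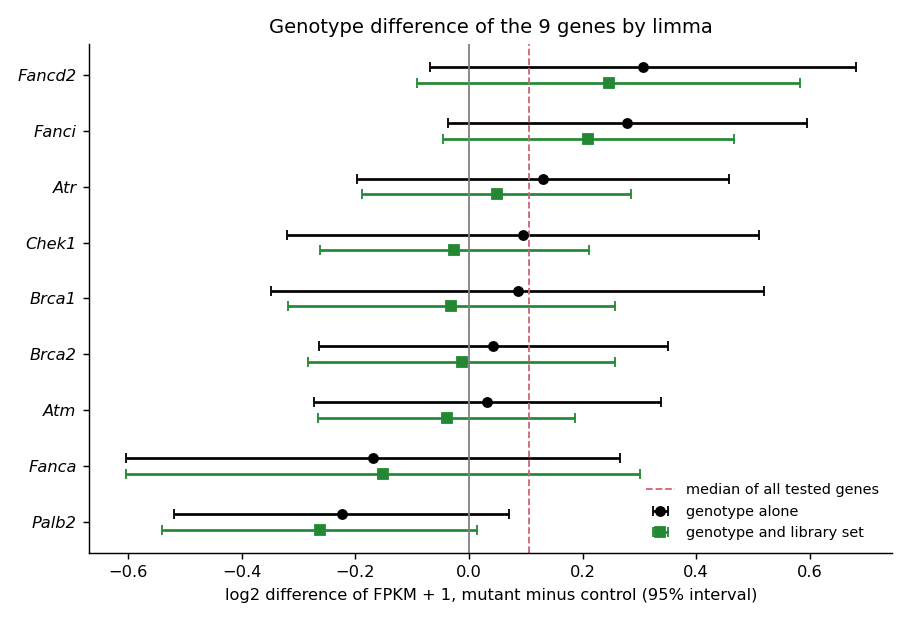
Log2 difference of FPKM + 1 between mutant and control (horizontal axis, points with 95% intervals) for each of the 9 genes, in the limma fit with genotype alone (circles) and with the library set added (squares). Every interval includes 0, and the estimates with the set added lie below those without it for all genes but Fanca.

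By level, Chek1, Atm and Brca1 stood in that order in each of the 10 libraries and above the other 6 genes. Their spreads over the controls still touched those of their neighbours, with Chek1 from 29.2, Atm from 17.6 to 29.8 and Brca1 from 12.0 to 26.2 FPKM. Fanca followed at 9.93 ± 3.48 FPKM in controls, then Atr, Palb2, Fancd2, Brca2 and Fanci at 6.61 to 3.54 FPKM. Over the controls the ranges of neighbours among these 6 overlapped, and differences between genes within a library were not tested. Fanca was above Atr in each control and in mutants 1 to 4, but not in mutant 5.

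The levels of several of these genes were ordered by library set. In 5 of the 9, Fanci, Brca1, Atm, Atr and Chek1, all 3 libraries of the second set were higher than all 7 of the first, against 15.5% of all tested genes. After scaling to the protein-coding sum, an adjustment added after seeing the data, this held for 2 of the 9, Fanci and Chek1, against 7.85% of all genes. After median-ratio scaling, also added here after seeing the data, it held for 4 of the 9, all of the 5 but Atm, against 13.0% of all genes. The mean log2(FPKM + 1) over the 9 genes was 3.05 to 3.45 in the first set and 3.53 to 3.73 in the second. Genes of the cell cycle lay in a similar order. Means over 26 S phase genes were 4.69 to 5.10 in the first set and 5.07 to 5.31 in the second, and means over 20 G2 and M phase genes 5.13 to 5.50 and 5.76 to 5.90. All libraries of the second set were above those of the first for 16 of the 20 G2 and M phase genes and for 10 of the 26 S phase genes, and for 12 and 5 after scaling to the protein-coding sum. The part of cell cycle phase and of library composition in the levels of the 9 genes was not tested.

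**Figure D3:**
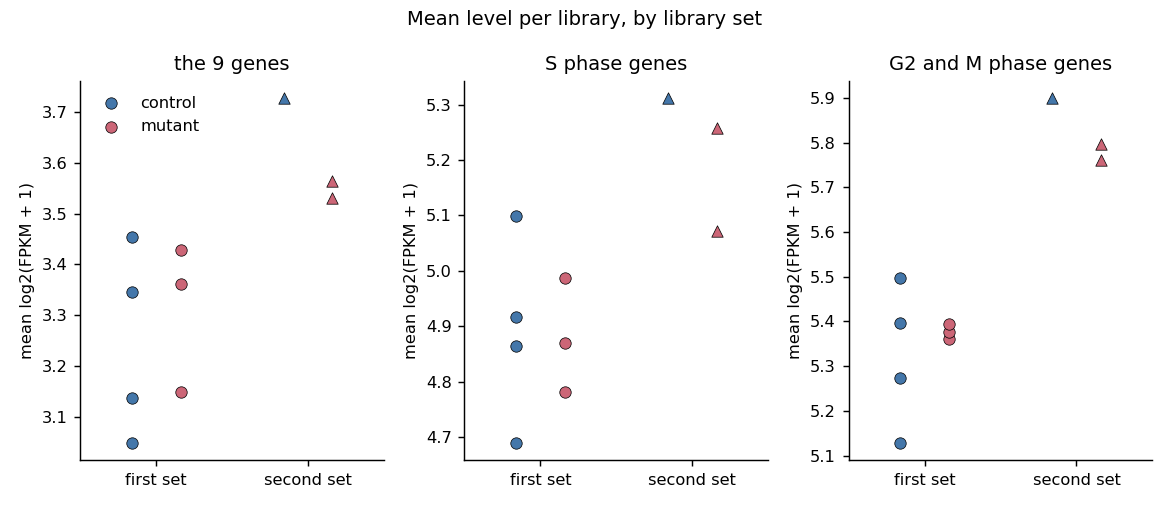
Mean log2(FPKM + 1) per library (vertical axes, not from 0) over the 9 genes, over 26 S phase genes and over 20 G2 and M phase genes, by library set and genotype. The 3 libraries of the second set lie above the 7 of the first for the 9 genes and for the G2 and M phase genes, and control 5 is the highest library in each panel.

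The partner gene of Brca1 did not follow this order. Bard1, named after its values were seen, was listed at 6.73, 5.71, 5.01, 8.49 and 5.60 FPKM in controls 1 to 5 and at 6.04, 6.16, 5.38, 4.85 and 4.48 FPKM in mutants 1 to 5 (log2 difference -0.18, SE 0.14, limma adjusted p = 0.714). After scaling to the protein-coding sum or by median ratios, Bard1 was lower in every library of the second set than in any of the first. The share of all genes with that reverse order was not counted. The ratio of Bard1 to Brca1 was 0.423, 0.423, 0.418 and 0.422 in controls 1 to 4 but 0.214 in control 5. In the mutants it was 0.353, 0.410 and 0.360 in the first set and 0.207 and 0.215 in the second. The 3 libraries of the second set thus held the lowest ratios irrespective of genotype (exact permutation p between genotypes = 0.183). Within the first set every mutant lay below every control, a difference between 4 and 3 libraries that was not tested.

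The other genes of these pathways gave no call either. Of 90 further genes listed, all 90 were in the files and 89 passed the filter, the exception being the polymerase gene Poln. By limma 0 of the 89 were called, and 5 had an unadjusted p under 0.05, 5.62% of them against 8.76% of all genes. Their log2 differences had a median of 0.034 and ran from -0.39 for Babam1 to 0.99 for Uimc1, and 85 of the 89 lay within 0.3 of 0. Above 0 stood 59, but 26 stood above the median of all genes.

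Of the Fanconi core complex and the FANCD2-FANCI switch, 0 of 15 were called, with a median log2 difference of 0.0059. The smallest p belonged to Wdr48, the cofactor of the deubiquitinase USP1, with a mean of 11.4 ± 2.54 FPKM over the controls and 13.3 ± 1.29 FPKM over the mutants (SD, n = 5 each; log2 difference 0.23, limma adjusted p = 0.643). Fance, a core complex subunit, followed at 4.86 and 5.48 FPKM (0.15, adjusted p = 0.757). Of the nucleases, translesion polymerases and helicase that act after the switch, 0 of 12 were called, with a median of 0.13. Rev1, a translesion polymerase gene, averaged 18.3 ± 1.33 FPKM over the controls and 22.2 ± 2.42 FPKM over the mutants (SD, n = 5 each; 0.26, unadjusted p = 0.0274, limma adjusted p = 0.516), with 1643 exonic bases shared with Eif5b on the opposite strand. Slx1b, a structure-specific nuclease gene, had 4.33 and 5.08 FPKM (0.19, adjusted p = 0.623). Exons of Slx1b share 360 bases with Bola2 on the opposite strand, listed at a mean of 18.9 FPKM. Both differences lay mainly in the first library set. The log2 difference there was 0.36 for Rev1 and 0.30 for Slx1b. In the second set, with a single control, it was 0.034 and -0.0020.

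Of the other homologous recombination genes, 0 of 36 were called, with a median log2 difference of 0.028 and a range from -0.27 for Tonsl to 0.27 for Rad52. Xrcc3 stood at 4.53 and 5.47 FPKM in controls and mutants (0.23, limma adjusted p = 0.618). Rpa3, the small subunit of the protein that coats single-stranded DNA, stood at 64.4 ± 9.51 and 55.1 ± 7.55 FPKM (SD, n = 5 each; -0.22, limma adjusted p = 0.633). Of the checkpoint sensors, mediators and kinases, 0 of 21 were called, with a median of 0.030. Etaa1, which encodes an activator of ATR, was listed at 16.9, 17.0, 15.6, 15.3 and 18.7 FPKM in controls 1 to 5 and at 14.9, 12.7, 12.5, 14.4 and 15.1 FPKM in mutants 1 to 5. Each of its mutants lay below each control (exact permutation p = 0.00794), a separation found for 1 of these 21 genes and for 0.377% of all tested genes. Etaa1 is named for the lowest limma p of its list, and its log2 difference of -0.24 did not pass across all genes (SE 0.099, limma adjusted p = 0.520, or 0.228 with the library set in the fit). After median-ratio scaling its groups overlapped, with controls from 14.5 and mutants up to 14.8 scaled FPKM. The log2 difference on that scale was larger, at -0.36 (unadjusted p = 0.00286, limma adjusted p = 0.287). Mdc1, a mediator that binds phosphorylated histone H2AX, had 0.39 (limma adjusted p = 0.614), at 5.34, 7.08, 5.30, 13.4 and 7.13 FPKM in controls and 11.2, 10.2, 11.7, 8.26 and 8.15 FPKM in mutants. Without control 4, its high control, the log2 difference of Mdc1 was 0.59 (adjusted p at least 0.202 over all single libraries left out).

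**Figure D4:**
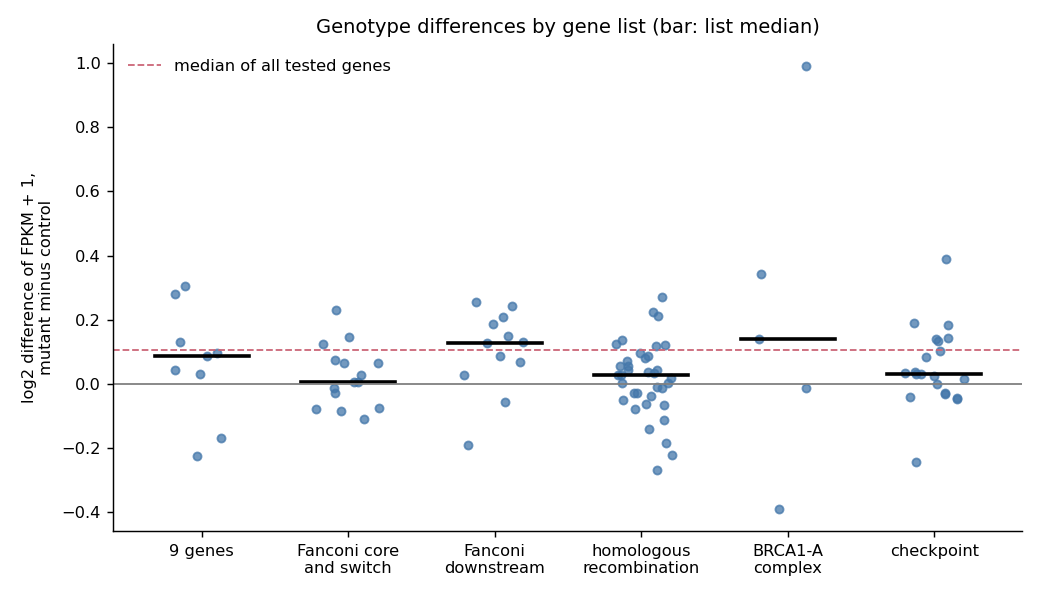
Log2 difference of FPKM + 1 between mutant and control (vertical axis) for each tested gene of the 6 lists, with bars at the list medians and a dashed line at the median of all tested genes, 0.11. Most points lie within 0.3 of 0, and the widest range is that of the 5 BRCA1-A genes, from -0.39 for Babam1 to 0.99 for Uimc1.

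The BRCA1-A complex, which brings BRCA1 to ubiquitinated chromatin beside breaks, held 3 of the 5 genes with an unadjusted p under 0.05, though 0 of its 5 genes were called. Babam1, a scaffold subunit, was listed at 13.0, 12.1, 13.9, 16.2 and 14.4 FPKM in controls 1 to 5 and at 9.09, 10.6, 10.3, 10.9 and 10.9 FPKM in mutants 1 to 5. Every mutant lay below every control, in either library set, and the mutant mean of 10.4 ± 0.762 FPKM was 74.4% of the control mean of 13.9 ± 1.56 FPKM (SD, n = 5 each; exact permutation p = 0.00794). Babam1, named for the lowest limma p of its list, was the 1 gene of the 5 separated in this way, against 0.377% of all tested genes. Its log2 difference of -0.39 (SE 0.10) had a limma adjusted p of 0.290. That p was 0.0513 after median-ratio scaling (-0.50) and 0.0236 when the library set was also a term (-0.51), a combination added after seeing the data. Babam1 lies on chromosome 8 from 71396861 to 71404619 in GRCm38.

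Bre, now named Babam2, encodes another scaffold subunit and differed in the opposite direction. It was listed at 3.72, 4.23, 3.95, 4.09 and 5.58 FPKM in the controls and at 5.54, 6.48, 5.55, 6.62 and 4.46 FPKM in the mutants. The groups overlapped through control 5, which lay above mutants 1, 3 and 5, and the log2 difference was 0.34 (limma adjusted p = 0.488; exact permutation p = 0.0317, n = 5 each). Uimc1, named after its values were seen, encodes RAP80, the subunit that binds ubiquitin chains. It was listed at 22.7, 15.4, 16.5, 21.5 and 72.7 FPKM in controls 1 to 5 and at 46.8, 42.7, 30.0, 80.8 and 65.1 FPKM in mutants 1 to 5. Its level followed the library set first, with 65.1 to 80.8 FPKM in the second set, and within the first set mutants at 30.0 to 46.8 FPKM lay above controls at 15.4 to 22.7 FPKM, a separation found for 16.7% of all tested genes in that set.

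The log2 difference of Uimc1 over all libraries was 0.99 (SE 0.42, limma adjusted p = 0.561). It passed within the first set alone (1.02, adjusted p = 0.0430) and without control 5 (1.37, adjusted p = 0.0497), but not once the library set was added to the fit (0.73, adjusted p = 0.185). Exons of Uimc1 share 416 bases with the processed pseudogene Gm6344 on the opposite strand, whose values were 43.9 to 94.5 FPKM in the first set and 28.4 to 34.6 FPKM in the second, so its order over the sets was the reverse of that of Uimc1.

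**Figure D5:**
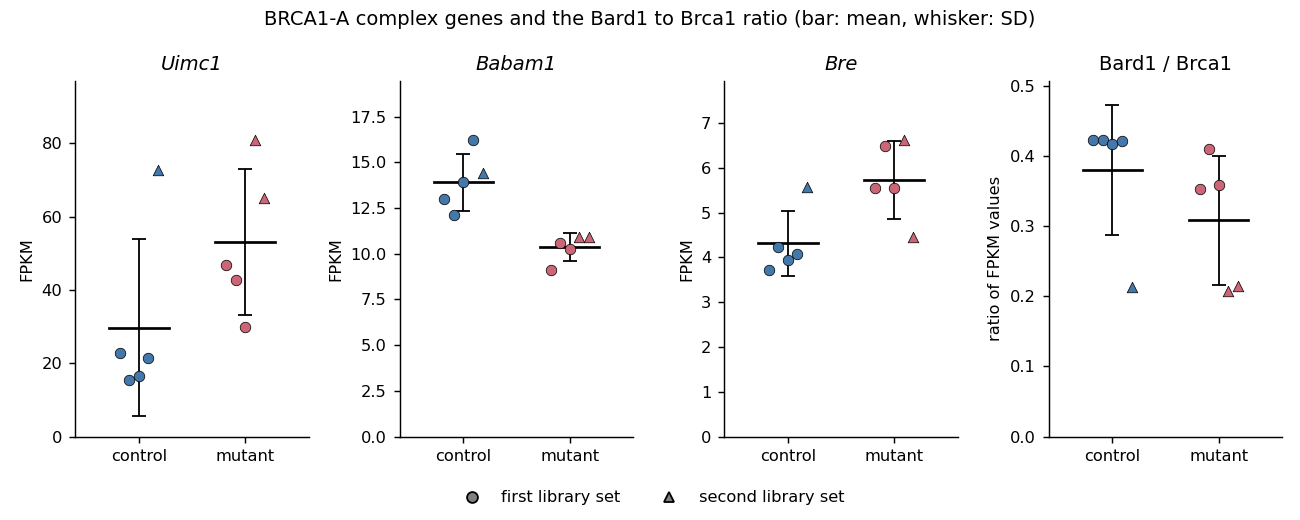
FPKM of Uimc1, Babam1 and Bre and the ratio of Bard1 to Brca1 (vertical axes, each from 0) in control and mutant libraries, with circles for the first and triangles for the second library set, bars at the mean and whiskers of 1 SD, n = 5 per group. Babam1 is lower in all 5 mutants, Uimc1 and the ratio are set apart by the triangles, and control 5 is the high control of Uimc1 and Bre.

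Targets of p53, a transcription factor that ATM and CHK1 can phosphorylate, were measured in the same libraries with a list chosen when results of these data were known. Of 18 tested, 4 were called higher (Eda2r, Ccng1, Trp53inp1 and Aen), with a median log2 difference of 0.77, against 0.155% of all genes called in either direction. With the library set in the fit 10 of the 18 were called (0.547% of all genes), and in the first set alone 11 (0.747%). Of the 9 repair and checkpoint genes 0 were called in each of these fits. In bulk RNA, fewer cells of a type and less RNA per cell cannot be told apart. Markers of other cell types gave these values: the summed level of 9 microglia and macrophage markers was 22.5 to 50.9 FPKM in controls and 33.6 to 103.1 FPKM in mutants, and 8 of 8 tested were above 0, with 0 called and 4 at an unadjusted p under 0.05. All 8 also lay above the median of all tested genes, of which 8.76% had an unadjusted limma p under 0.05. With the library set in the fit 2 of the 8, Fcer1g and C1qa, were called. Their mean log2(FPKM + 1) was 1.95 to 2.65 in controls and 2.96 to 3.56 in mutants of the first set, without overlap, and 1.82 in the control and 2.20 to 2.44 in the mutants of the second. Erythroid markers summed to 3855 to 9581 and 5312 to 10036 FPKM, endothelial markers to 28.6 to 46.5 and 34.4 to 56.6 FPKM, and mesenchymal markers to 63.2 to 149.5 and 77.5 to 183.6 FPKM, in controls and mutants in turn. Early neuron markers summed to 342 to 502 and 406 to 632 FPKM, 12 of 12 above 0, with 0 called and 4 at an unadjusted p under 0.05. All 12 also lay above the median of all tested genes. With the library set in the fit 1 of the 12, Snap25, was called. Their mean log2 level was 4.21 to 4.49 in controls and 4.82 to 5.08 in mutants of the first set, again without overlap, and 4.17 in the control and 4.33 to 4.41 in the mutants of the second. No listed marker was at 0 in every library of a group, and the part of these shifts in cell type markers in the values of the 9 genes was not tested.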

How the data were processed

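The authors deposited 1 list of gene symbols with FPKM values per library. Per the labels' protocols, RNA was extracted with Trizol and stranded total RNA libraries were made after ribosomal RNA removal. The submitters' processing notes name HISAT2 and GRCm38 (mm10). No source used here names the program behind the FPKM values, its annotation or whether it used strand. Depth is not stated. A rough estimate from the step that 1 fragment adds to low values gave 9770000 to 21400000 fragments per library.

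Genes that reached 1 FPKM in 5 or more libraries were fitted on the log2(FPKM + 1) scale by limma 3.58.1 under R 4.3.3 (trend and robust moderation, genotype as the single term), with Benjamini-Hochberg adjustment over all 13522 tested and a threshold of 0.05. A fold change on this scale understates the change of low genes. Single values were compared by exact two-sided permutation over all splits of 5 against 5. The fit was also run on simulated data. These drew each gene independently, without library sets or scaling differences. That run therefore does not measure how often the fit would find a difference in these libraries, and its outcome is not given here. The second library set holds libraries with Rnu12 at 100 FPKM or more. Coordinates and overlaps are from GENCODE M21 on GRCm38, which may not be the authors' annotation. Minor introns of these genes were not searched, since no genome sequence was used here. Tables used pandas 2.3.3 and plots matplotlib 3.10.9, both under Python 3.11.15.

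The 9 genes and all lists were chosen with earlier results of these data known. The text names Rnu11, the 9 genes, and in each pathway list the genes past the threshold, or else the 2 of lowest p. Uimc1, Bard1, Gm6344, Tonsl, Rad52 and Poln were named after their values were seen. Alternatives tried were another pseudocount (0.1), other filters, other scalings, other moderation, the library set, a replicate block and single libraries left out.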

Additional observations from a re-analysis of the deposited data

Results flagged for a closer look

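In 5 of 46 groups of 5 libraries checked, those of the genes named above, 1 library lay far from the others by Dixon's criterion, which chance meets in about 1 of 20 groups. Fancd2 was lowest in mutant 3 at 3.97 FPKM, where the next mutant had 5.73 FPKM. Palb2 was also lowest in mutant 3, at 3.66 FPKM against 5.22 FPKM in the next mutant. Bre was highest in control 5 at 5.58 FPKM, next to 4.23 FPKM. Uimc1 was likewise highest in control 5, at 72.7 FPKM next to 22.7 FPKM, the largest gap of the 5. Mdc1 was highest in control 4 at 13.4 FPKM, next to 7.13 FPKM.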

How the results depend on the processing

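None of the 9 genes passed limma's threshold under any of the 189 combinations of gene and alternative (lowest adjusted p 0.144), but the estimate changed sign in 26 of them. Median-ratio scaling gave log2 differences of -0.030 for Brca1, -0.054 for Brca2, -0.086 for Atm and -0.025 for Chek1, and FPKM differences of -0.392, -0.224, -1.44 and -0.0454, with that of Palb2 at -1.45 (exact permutation p = 0.00794). Quantile normalization gave -0.0098 for Brca1, -0.089 for Brca2 and -0.059 for Atm, and scaling to the protein-coding sum, added after seeing the data, -0.020 for Atm. The library set as a term gave -0.031, -0.013, -0.039 and -0.026 for Brca1, Brca2, Atm and Chek1, and with median-ratio scaling, also added later, -0.13, -0.098, -0.14 and -0.13, with -0.045 for Atr. The first set alone gave Chek1 -0.024, or -0.976 FPKM. Leaving out 1 library at a time gave log2 ranges of -0.030 to 0.24 for Brca1, -0.028 to 0.16 for Brca2, -0.048 to 0.13 for Atm, -0.014 to 0.22 for Chek1, 0.057 to 0.25 for Atr, -0.30 to -0.0041 for Fanca and -0.28 to -0.13 for Palb2. The FPKM differences then ranged from -0.674 to 2.87 for Brca1, -0.178 to 0.561 for Brca2, -0.892 to 2.15 for Atm, -0.760 to 6.55 for Chek1 and 0.675 to 1.25 for Fanci. Rnu11 stayed lower throughout and passed limma with quantile normalization (-1.54, adjusted p = 0.0435), the set term (-1.65, 0.00853), the set term with median-ratio scaling (-1.76, 0.0194), the first set alone (-2.02, 0.00185) and without mutant 4 (-1.68, 0.0494), with -1.70 to -1.31 over the libraries left out.

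Of all genes 21 were called, 12 of them higher. The count was 2 without a filter, 30 (11 higher) with median-ratio scaling, 35 (13 higher) with quantile normalization, 25 (9 higher) with the protein-coding sum, 11 without trend and robust moderation, 74 with the set term, 101 in the first set alone, and 89 (40 higher) with the set term and median-ratio scaling. It was 2 to 79 with 1 library left out, the 79 without control 5. It was 2 without control 1, control 2, mutant 2 or mutant 3, 4 without control 3, 9 without mutant 1, 10 without mutant 5 and 11 without control 4. Of the other pathway genes 1 was called in the first set alone (Uimc1), 1 with the set term and median-ratio scaling (Babam1), and 0 to 1 with 1 library left out. A replicate block called 14 genes and 0 of the 9. The labels do not say whether shared replicate numbers pair these libraries. Deviations of same-numbered libraries correlated at -0.107 to 0.521, and 2 of 5 controls matched their own number best. The lowest value is that of replicate 4, whose libraries lie in different library sets, so these values do not decide the pairing. The cause of these changes was not tested. The true depth is unknown, which limits what can be said of the precision of genes at 3 to 6 FPKM.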
